A study of Mus musculus with 31 samples.

Results

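Acute phase and metallothionein genes, 8 in all, were followed in mouse bone marrow-derived macrophages given an inflammatory stimulus with or without dexamethasone and a compound directed at BRD9. They were chosen by symbol, not by a threshold, but with earlier results of these data known, so they are not an unselected set. Shares of all genes tested are therefore given beside their counts as a description only. The genes are Saa3, Lcn2, Hp, C3, Cfb, Slpi, Mt1 and Mt2. They are 8 of the 35275 gene identifiers counted in the first experiment and of the 54532 counted in the second. All 8 were found in both tables by Ensembl identifier, and 7 of 8 in the first experiment and 8 of 8 in the second had enough reads to be tested. RNA sequencing was done on 31 libraries of C57BL/6J macrophages, grown from marrow of animals aged 6 to 12 weeks in L-929 conditioned medium. The first experiment held 21 libraries in 7 groups of 3: Dex + iBRD9 + LPS, Dex + dBRD9 + LPS, Dex + LPS, iBRD9 + LPS, dBRD9 + LPS, LPS, and vehicle. The second held 10 libraries in 5 groups of 2, which were stimulated with IFNγ + LPS after Dex + dBRD9, after Dex, after dBRD9 or after neither, or received vehicle. Dexamethasone (Dex) is a synthetic glucocorticoid and was used at 1 µM. iBRD9 is a small-molecule inhibitor of the bromodomain protein BRD9, for which the labels name both 3 and 10 µM without saying which applies to a library. dBRD9 is a degrader of the same protein and was used at 250 nM. Compounds were given overnight and bacterial lipopolysaccharide (LPS) was then added at 100 ng/ml for 3 h, while neither dose nor time of interferon-γ (IFNγ) is stated. No group received Dex without a stimulus, so a Dex effect could be read only on top of LPS or IFNγ + LPS. Nothing states that libraries of a group came from separate animals or cultures, so p-values measure the spread between these libraries, which may be technical.

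Acute phase proteins are secreted defence proteins whose synthesis rises in inflammation, mostly in the liver but for several of them also in macrophages. Cytokine signals reach their genes through NF-κB, C/EBP and STAT3 factors, and glucocorticoids are classically known to act together with cytokines on many of them. Metallothioneins are small cysteine-rich proteins that bind zinc and other metals. Their genes respond to zinc through the factor MTF1, which binds metal response elements (MRE), and are also classical glucocorticoid-responsive genes. BRD9 belongs to the ncBAF form of the SWI/SNF complexes, which remodel chromatin.

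The mouse mm10 annotation used here (GENCODE) places Saa3 (ENSMUSG00000040026, serum amyloid A3, an apolipoprotein-like acute phase protein made outside the liver) at chr7:46711998-46715700 on the minus strand. Lcn2 (ENSMUSG00000026822, lipocalin 2, which binds bacterial iron siderophores) lies at chr2:32384633-32388252, minus strand. Hp (ENSMUSG00000031722, haptoglobin, which binds free haemoglobin) lies at chr8:109575128-109579172, minus strand. C3 (ENSMUSG00000024164, the central complement component) lies at chr17:57203970-57228136 and Cfb (ENSMUSG00000090231, complement factor B, the protease of the alternative pathway) at chr17:34856374-34862518, both on the minus strand. Slpi (ENSMUSG00000017002, secretory leukocyte protease inhibitor, which blocks neutrophil serine proteases) lies at chr2:164354070-164389095, minus strand. Mt1 (ENSMUSG00000031765) at chr8:94179082-94180327 and Mt2 (ENSMUSG00000031762) at chr8:94172664-94173568 are neighbours on the plus strand. All 8 are annotated as protein-coding, and values are sums of reads over each gene.

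Overlapping annotation makes 2 of the 8 less certain. Of the exon bases of Cfb, 2246 (79.5%) are also exon bases of Gm20547 on the same strand, which had no count in any library, and how shared reads were assigned is not given in the sources used here. Of the exon bases of Mt2, 432 (73.5%) are overlapped by the antisense gene Gm45774, which is an entry of the second table and not of the first. The level of Mt2 per 100 Mt1 counts was 0.25 to 1.61 in the second experiment and 16.1 to 157 in the first, so Mt2 levels cannot be set against each other across experiments. Saa3 and the metallothioneins also have close relatives, between which similar reads could be split.

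Promoter windows of 250 bases before the RefSeq start (RefSeq, GRCm38.p6) were available for 6 of the 8 genes. Those of the cytokine-responsive genes are shown for their NF-κB-type letters (GGG and CC with any 5 bases between) and C/EBP-type letters (TTNNGNAA), which are in capitals, with both strands searched.
Saa3 (chr7:46715677-46715926, minus): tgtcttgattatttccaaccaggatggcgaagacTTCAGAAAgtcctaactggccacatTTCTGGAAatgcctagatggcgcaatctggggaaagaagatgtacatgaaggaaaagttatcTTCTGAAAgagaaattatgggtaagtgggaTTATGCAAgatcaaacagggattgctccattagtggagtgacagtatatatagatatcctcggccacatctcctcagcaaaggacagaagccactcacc
Lcn2 (chr2:32387740-32387989, minus): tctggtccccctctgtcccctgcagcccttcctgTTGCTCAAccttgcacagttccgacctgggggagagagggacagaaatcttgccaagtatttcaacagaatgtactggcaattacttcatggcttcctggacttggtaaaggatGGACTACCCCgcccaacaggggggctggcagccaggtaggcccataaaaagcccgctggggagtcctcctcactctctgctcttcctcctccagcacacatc
C3 (chr17:57228137-57228386, minus): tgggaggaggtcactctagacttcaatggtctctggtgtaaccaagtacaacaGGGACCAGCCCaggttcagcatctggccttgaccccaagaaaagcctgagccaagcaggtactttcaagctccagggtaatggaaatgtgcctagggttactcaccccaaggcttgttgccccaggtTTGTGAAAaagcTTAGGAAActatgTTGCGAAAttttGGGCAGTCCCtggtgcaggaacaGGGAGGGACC
Those of the metallothionein genes are shown for their MRE letters (TGCACNC or TGCGCNC, either strand), in capitals.
Mt1 (chr8:94178839-94179088, plus): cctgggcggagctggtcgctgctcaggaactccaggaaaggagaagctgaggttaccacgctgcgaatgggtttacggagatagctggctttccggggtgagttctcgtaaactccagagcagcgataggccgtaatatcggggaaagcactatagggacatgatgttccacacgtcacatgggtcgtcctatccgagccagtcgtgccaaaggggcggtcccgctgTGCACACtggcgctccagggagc
Mt2 (chr8:94172368-94172617, plus): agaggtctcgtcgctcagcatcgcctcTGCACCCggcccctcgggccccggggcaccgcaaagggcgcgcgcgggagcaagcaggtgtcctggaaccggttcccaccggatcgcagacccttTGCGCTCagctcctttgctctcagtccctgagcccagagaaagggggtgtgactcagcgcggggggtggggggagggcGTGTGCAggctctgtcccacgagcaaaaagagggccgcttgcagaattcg
The Mt2 window held 3 MRE matches and the Mt1 window held 1. Both windows end upstream of a TATAAA sequence, and MRE matches found past the windows are given below. These counts are therefore not the full MRE content of either promoter. Of 32851 promoter windows of this length, 21.4% held an MRE match and 5.17% held 2 or more. C/EBP-type letters, present in 36.8% of all windows, gave 4 matches each in the Saa3 and C3 windows, 3 in that of Slpi, which is not printed, 1 each in those of Lcn2 and Mt2, and none in that of Mt1. NF-κB-type letters, present in 45.8% of all windows, gave 1 match in the Lcn2 window, 5 in the C3 window and 3 in the Mt1 window, some of them overlapping and read from both strands, and none in those of Saa3, Slpi and Mt2. A glucocorticoid response element spelled as AGNACA and TGTNCT with any 3 bases between, present in 0.0609% of all windows, had no match in any of the 6 windows, which says only that these letters are not there. Hp and Cfb are named only.

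Library totals were 19.3 to 29.9 M counts in the first experiment and 14.5 to 17.9 M counts in the second. Levels are given as counts-per-million (CPM) after trimmed mean (TMM) scaling, and tests are edgeR's quasi-likelihood test with Benjamini-Hochberg adjustment over all genes tested in an experiment, called at an adjusted p under 0.05. Fkbp5, a glucocorticoid-induced gene used to check the labels, averaged 526 to 538 CPM in the 3 Dex groups of the first experiment, against 13.6 to 35.7 CPM in the other 4 groups. Summed macrophage markers were 11800 to 26700 CPM in every library of the first experiment, and the summed markers of hepatocytes, the classical source of acute phase proteins, were at most 1.14 CPM. In the first experiment, replicate 1 of Dex + LPS and replicate 1 of Dex + dBRD9 + LPS stood apart from the other libraries of their groups, and results that change without them are given in both ways. Relative to the group mean, levels in these libraries fell with exon length (Spearman rho -0.654 and -0.483 over 8810 genes). In the second experiment, rho was -0.606 and 0.606 in vehicle libraries and 0.529 and -0.529 in Dex + IFNγ + LPS libraries. With 2 libraries a group, neither can be said to stand apart there. The part of this trend in the results was not tested. The plot of levels by library in the first experiment shows all 8 genes.

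**Figure D1:**
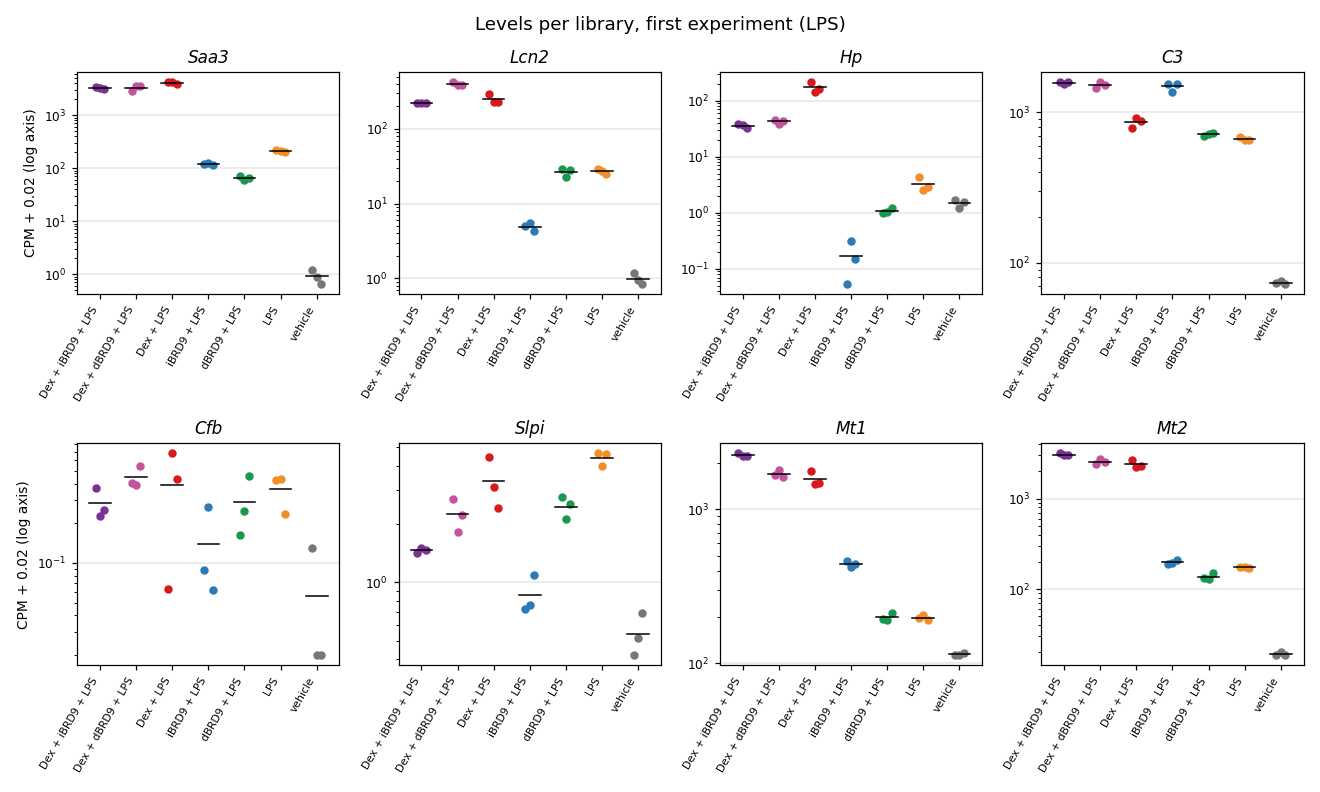
Level of each gene in the 21 libraries of the first experiment, as CPM + 0.02 on a log axis, by group with n = 3, where points are libraries and bars are group means. Saa3, Lcn2, Hp, Mt1 and Mt2 were higher in all 9 libraries with Dex than in all 12 without it, and C3 and Slpi were not.

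Stimulation with LPS alone raised every one of the genes that could be tested, Saa3 most and Mt1 least. LPS was set against vehicle to read the inflammatory response without Dex. Saa3 had 218, 213 and 204 CPM in LPS libraries, against 1.16, 0.873 and 0.635 CPM in vehicle libraries. The groups were far apart, with a log2 fold change of 7.88 ± 0.12 (SE, edgeR adjusted p = 7e-24). Lcn2 had 29.5, 27.3 and 25 CPM in LPS libraries, against 1.16, 0.931 and 0.822 CPM in vehicle libraries, again without overlap (log2 fold change 4.81 ± 0.16). Haptoglobin stayed low, at 4.41, 2.52 and 2.86 CPM in LPS libraries and 1.67, 1.22 and 1.53 CPM in vehicle libraries, and its log2 fold change was 1.15 ± 0.26 (edgeR adjusted p = 0.00044). C3 was abundant before stimulation, with 687, 649 and 658 CPM in LPS libraries and 72.7, 75.9 and 72.2 CPM in vehicle libraries, and rose by 3.17 ± 0.062 on the log2 scale. Slpi had 4.64, 3.96 and 4.58 CPM in LPS libraries, against 0.4, 0.495 and 0.673 CPM in vehicle libraries, and rose by 3.06 ± 0.24 on the log2 scale.

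The metallothioneins separated from each other. Mt1 had 196, 205 and 190 CPM in LPS libraries, against 114, 113 and 116 CPM in vehicle libraries, a log2 fold change of 0.79 ± 0.063 (edgeR adjusted p = 1e-10). Mt2 had 175, 175 and 171 CPM in LPS libraries, against 18.6, 19.9 and 18.7 CPM in vehicle libraries, a log2 fold change of 3.19 ± 0.076 (edgeR adjusted p = 1.7e-20). In both genes the groups did not overlap. Thus 7 of 7 tested genes were higher with LPS, where 36.1% of all 12662 genes tested were called higher, 39.3% lower and 75.3% in either direction. All 7 calls held without the third vehicle library, which differed from the other vehicle libraries more than those did from each other. Cfb was too low for a test in the first experiment and reached at most 1.18 CPM in any library of the series. How reads over the exon bases it shares with Gm20547 were assigned is not given, so its level may be understated. These are bulk samples, so a change in the share of cells that express a gene and a change in the RNA per cell cannot be told apart.

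Adding Dex to LPS raised 5 of the genes by a factor of several and Hp the most, while C3 changed little and Slpi was not called. Saa3 had 4230, 4190 and 3880 CPM in Dex + LPS libraries, against the 204 to 218 CPM of the LPS libraries named above. Every Dex + LPS library was well above every LPS library, and the difference was 19.4-fold (log2 fold change 4.28 ± 0.084, edgeR adjusted p = 5e-21). Lcn2 had 294, 229 and 228 CPM in Dex + LPS libraries and averaged 27.3 ± 2.27 CPM in LPS libraries (SD, n = 3), a 9.16-fold difference (log2 fold change 3.19 ± 0.1). Hp had 216, 145 and 161 CPM in Dex + LPS libraries, against an average of 3.26 ± 1.01 CPM in LPS libraries (SD, n = 3). That difference was 53.7-fold (log2 fold change 5.75 ± 0.17, edgeR adjusted p = 7.2e-18) and took rank 15 of the 12662 genes ordered from the highest log2 fold change. Saa3 took rank 37, Mt2 51, Lcn2 76 and Mt1 90 in the same order.

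Both metallothioneins stood in the same high range. Mt1 had 1760, 1450 and 1490 CPM in Dex + LPS libraries and 197 ± 7.69 CPM in LPS libraries (mean ± SD, n = 3), a 7.93-fold difference (log2 fold change 2.99 ± 0.066). Mt2 had 2680, 2250 and 2310 CPM in Dex + LPS libraries and 174 ± 2.25 CPM in LPS libraries, a 13.9-fold difference (log2 fold change 3.79 ± 0.074). Neither gene had overlapping groups. For complement, C3 had 780, 913 and 880 CPM in Dex + LPS libraries and 687, 649 and 658 CPM in LPS libraries, a 1.29-fold difference that was called (log2 fold change 0.37 ± 0.056, edgeR adjusted p = 7e-06). Slpi had 4.46, 3.08 and 2.42 CPM in Dex + LPS libraries, which overlapped the 3.96 to 4.64 CPM of LPS libraries, and its log2 fold change of -0.39 ± 0.19 was not called (edgeR adjusted p = 0.086). Without the first Dex + LPS library the value for Slpi was -0.67 and was called lower (edgeR adjusted p = 0.0042), while the other 6 kept their calls, with log2 fold changes of 4.26 for Saa3, 3.06 for Lcn2, 5.57 for Hp, 0.44 for C3, 2.9 for Mt1 and 3.71 for Mt2. In all, 6 of 7 tested genes were higher, where 27.9% of all genes tested were called higher and 55.4% in either direction. Cfb averaged 0.371 ± 0.31 CPM in Dex + LPS libraries and 0.346 ± 0.113 CPM in LPS libraries (SD, n = 3 each) and was not tested.

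Set against vehicle instead, Dex + LPS was higher in 7 of 7 tested genes, where 36.9% of all genes tested were called higher. The largest of these was Saa3, with a log2 fold change of 12.16 ± 0.13, and the smallest Slpi, with 2.67 ± 0.25. Expressed per length of exon sequence, as CPM per kilobase of exon (RPKM), the order of levels in Dex + LPS libraries was Mt2 at 4100, Saa3 at 1570, Mt1 at 1260, C3 at 167, Hp at 108, Lcn2 at 95.3 and Slpi at 2.82. With LPS alone the order of levels was different, with Mt2 at 296, Mt1 at 158, C3 at 129, Saa3 at 81.1, Lcn2 at 10.4, Slpi at 3.72 and Hp at 2.03 RPKM. In vehicle libraries Mt1 led with 91.8 RPKM, followed by Mt2 with 32.4 and C3 with 14.3, and the other 4 tested genes were under 1 RPKM. These orders depend on the length used, the merged exons of all annotated transcripts. That length was 2606 bases for Saa3, 588 for Mt2 and 1246 for Mt1, where it covers the whole gene span. By CPM, Saa3 at 4100 stood above Mt2 at 2410 and Mt1 at 1570 in Dex + LPS libraries.

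Lcn2, Hp and Slpi are also made by neutrophils and their precursors, so that cell type's markers were read beside them. The summed neutrophil markers were 82.7 to 86.9 CPM in Dex + LPS libraries, 28.7 to 37.4 CPM in LPS libraries and 28 to 31.5 CPM in vehicle libraries. Of the Dex + LPS sum, Mmp8, a collagenase stored in neutrophil granules, made up 68.7 CPM on average. Of the 15 neutrophil markers listed, 11 had a count in Dex + LPS libraries and 1 averaged at least 10 CPM there. Those without a count were Mpo, Elane, Prtn3 and Cxcr2 in Dex + LPS libraries, and Ly6g and Mpo in LPS libraries. In the second experiment the sum was 18.8 to 24.3 CPM in Dex + IFNγ + LPS libraries and 44.2 to 44.9 CPM in IFNγ + LPS libraries. Of the 15 markers, 3 averaged at least 10 CPM in IFNγ + LPS libraries and 0 did in Dex + IFNγ + LPS libraries. Macrophage markers summed to 26300 to 26700 CPM in Dex + LPS libraries, 15200 to 15800 CPM in LPS libraries and 11800 to 12000 CPM in vehicle libraries of the first experiment. Stromal markers, mostly Pdgfrb, summed to 37.8 to 47.5 CPM in Dex + LPS libraries, 0.855 to 1.93 CPM in iBRD9 + LPS libraries, 10.8 to 12.1 CPM in dBRD9 + LPS libraries, 29.8 to 32.9 CPM in LPS libraries and 0.378 to 0.546 CPM in vehicle libraries. In the second experiment, stromal markers summed to 33.3 to 68.5 CPM over all libraries, with 50.6 to 50.9 CPM in vehicle libraries. Macrophage markers summed to 13100 to 15200 CPM there and hepatocyte markers to at most 0.856 CPM. The part of these marker lists in the results was not tested.

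The inhibitor iBRD9 moved the genes in opposite directions under LPS. Relative to LPS alone, iBRD9 + LPS was lower in Saa3, Lcn2, Hp and Slpi and higher in C3, Mt1 and Mt2. Lcn2 had 5.02, 5.43 and 4.23 CPM in iBRD9 + LPS libraries, against 29.5, 27.3 and 25 CPM in LPS libraries. No library overlapped, and the log2 fold change was -2.48 ± 0.12 (edgeR adjusted p = 5.5e-14). Hp had 0.0339, 0.29 and 0.128 CPM in iBRD9 + LPS libraries, below the vehicle libraries as well, and its log2 fold change was -4.45 ± 0.44 (edgeR adjusted p = 9.9e-09). At so few counts it was -3.91 without the first and -5.32 without the second iBRD9 + LPS library. Slpi had 0.712, 0.745 and 1.07 CPM in iBRD9 + LPS libraries, against 3.96 to 4.64 CPM in LPS libraries, and its log2 fold change was -2.38 ± 0.23. Saa3 moved less, with 119, 124 and 117 CPM in iBRD9 + LPS libraries, and its log2 fold change was -0.82 ± 0.075 (edgeR adjusted p = 2.9e-09). On the other side, C3 had 1540, 1360 and 1550 CPM in iBRD9 + LPS libraries, against 649 to 687 CPM in LPS libraries, and was 2.23-fold higher (log2 fold change 1.16 ± 0.057). Mt1 had 458, 424 and 442 CPM in iBRD9 + LPS libraries, against 190 to 205 CPM in LPS libraries, and was 2.24-fold higher (log2 fold change 1.16 ± 0.062). Mt2 had 188, 196 and 208 CPM in iBRD9 + LPS libraries, against 171 to 175 CPM in LPS libraries. Its log2 fold change of 0.18 ± 0.067 was called (edgeR adjusted p = 0.022), but the call was lost with DESeq2 (adjusted p = 0.054), without the third iBRD9 + LPS library (0.15, adjusted p = 0.1) and without the second or the third LPS library (adjusted p = 0.051 and 0.074). All 7 tested genes were therefore called, 3 of them higher and 4 lower, where 62% of all genes tested were called in either direction, 31.4% higher and 30.5% lower. The summed neutrophil markers were 1.54 to 3.46 CPM in iBRD9 + LPS libraries and 28.7 to 37.4 CPM in LPS libraries, and their part in the values of Lcn2, Hp and Slpi was not tested.

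The degrader dBRD9 lowered 4 of the genes under LPS and had no called effect on the other 3 tested ones. Saa3 had 69.8, 58.6 and 65.6 CPM in dBRD9 + LPS libraries, against 218, 213 and 204 CPM in LPS libraries. This was the difference with the lowest p among the 8 genes, with no overlap and a log2 fold change of -1.71 ± 0.078 (edgeR adjusted p = 3.5e-12). Hp had 0.958, 1 and 1.21 CPM in dBRD9 + LPS libraries and 4.41, 2.52 and 2.86 CPM in LPS libraries, with a log2 fold change of -1.61 ± 0.3 (edgeR adjusted p = 0.00048). Slpi had 2.73, 2.1 and 2.51 CPM in dBRD9 + LPS libraries, all below the LPS libraries (log2 fold change -0.84 ± 0.2, edgeR adjusted p = 0.004). Mt2 had 131, 128 and 151 CPM in dBRD9 + LPS libraries, also below the LPS libraries (log2 fold change -0.35 ± 0.068, edgeR adjusted p = 0.00071). Lcn2 had 28.7, 22.8 and 28.1 CPM in dBRD9 + LPS libraries, overlapping the LPS libraries, and its log2 fold change of -0.04 had a 95% interval of -0.25 to 0.17. C3 had 697, 713 and 732 CPM in dBRD9 + LPS libraries, which lay just above the LPS libraries, and its log2 fold change of 0.1 had an interval of -0.01 to 0.22 (edgeR adjusted p = 0.24). It was called higher when only these 2 groups were fitted (adjusted p = 0.02), without both libraries that stand apart (0.11, adjusted p = 0.035) and with library totals alone (0.16, adjusted p = 0.04). Mt1 had 194, 191 and 212 CPM in dBRD9 + LPS libraries, overlapping the LPS libraries, with an interval of -0.12 to 0.14 around a log2 fold change of 0.01. The 4 genes called lower stand beside 9.97% of all genes tested that were called lower and 16.6% called in either direction.

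The groups with the inhibitor and the degrader were also set against each other under LPS, although their doses are on different scales and the iBRD9 dose is not settled by the labels. All 7 tested genes differed, where 55.6% of all genes tested did. Saa3 was 1.86-fold higher in iBRD9 + LPS than in dBRD9 + LPS libraries (log2 fold change 0.89 ± 0.077). C3, Mt1 and Mt2 were higher as well, with log2 fold changes of 1.05, 1.15 and 0.53. Lcn2 was lower in iBRD9 + LPS libraries, at 4.89 ± 0.606 CPM against 26.5 ± 3.28 CPM in dBRD9 + LPS libraries (mean ± SD, n = 3 each, log2 fold change -2.43 ± 0.12). Hp and Slpi were lower too, with log2 fold changes of -2.84 and -1.55, of which that of Hp ran over -3.71 to -2.3 without the second or the first iBRD9 + LPS library.

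In the presence of Dex, iBRD9 again lowered Hp, Slpi and Saa3 and raised C3, Mt1 and Mt2, and Lcn2 was not called. Hp had 38.8, 36.3 and 32.7 CPM in Dex + iBRD9 + LPS libraries, against 216, 145 and 161 CPM in Dex + LPS libraries, with no overlap (log2 fold change -2.28 ± 0.13, edgeR adjusted p = 1.3e-11). Saa3 had 3400, 3290 and 3180 CPM in Dex + iBRD9 + LPS libraries, against 4230, 4190 and 3880 CPM in Dex + LPS libraries, a smaller difference (log2 fold change -0.32, edgeR adjusted p = 0.0016). Slpi had 1.4, 1.49 and 1.45 CPM in Dex + iBRD9 + LPS libraries, all below the Dex + LPS libraries (log2 fold change -1.2, edgeR adjusted p = 0.00024). C3 had 1580, 1540 and 1580 CPM in Dex + iBRD9 + LPS libraries, against 780 to 913 CPM in Dex + LPS libraries, and was 1.83-fold higher. Both metallothioneins were called higher, Mt1 with 2310, 2220 and 2200 CPM (1.43-fold) and Mt2 with 3170, 3000 and 3030 CPM (1.27-fold) in Dex + iBRD9 + LPS libraries. Lcn2 had 226, 222 and 220 CPM in Dex + iBRD9 + LPS libraries, just under the 228 to 294 CPM of Dex + LPS libraries, and its log2 fold change of -0.17 had an interval of -0.35 to 0.02 (edgeR adjusted p = 0.15). Of the 7 tested genes, 3 were called higher and 3 lower, beside 16.7% and 18% of all genes tested and 34.7% in either direction. The summed neutrophil markers were 29.4 to 30.1 CPM in Dex + iBRD9 + LPS libraries and 82.7 to 86.9 CPM in Dex + LPS libraries, and their part in the values of Hp and Slpi was not tested.

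With dBRD9 and Dex, the values of Lcn2 and C3 stood apart from those under LPS alone. Lcn2 had 426, 393 and 387 CPM in Dex + dBRD9 + LPS libraries, above all of the 294, 229 and 228 CPM in Dex + LPS libraries (log2 fold change 0.68 ± 0.088, edgeR adjusted p = 6.7e-06). C3 had 1450, 1590 and 1510 CPM in Dex + dBRD9 + LPS libraries, against 780, 913 and 880 CPM in Dex + LPS libraries (log2 fold change 0.82 ± 0.056, edgeR adjusted p = 4e-10). Hp was lower, with 45.3, 38.7 and 43.7 CPM in Dex + dBRD9 + LPS libraries, against 145 to 216 CPM in Dex + LPS libraries (log2 fold change -2.03 ± 0.13, edgeR adjusted p = 8.9e-11). Saa3 had 2890, 3600 and 3480 CPM in Dex + dBRD9 + LPS libraries and was called lower (log2 fold change -0.3, edgeR adjusted p = 0.0057). That call was lost when only these 2 groups were fitted (adjusted p = 0.12), and the value was -0.21 without the first Dex + dBRD9 + LPS library. Slpi had 2.68, 1.8 and 2.21 CPM in Dex + dBRD9 + LPS libraries, overlapping the Dex + LPS libraries, and was not called (log2 fold change -0.58, edgeR adjusted p = 0.059). It was called lower without the first Dex + dBRD9 + LPS library (-0.74) or without the third Dex + LPS library (-0.77), and was -0.29 without the first Dex + LPS library. Mt1 had 1670, 1800 and 1630 CPM and Mt2 had 2390, 2730 and 2560 CPM in Dex + dBRD9 + LPS libraries. Their log2 fold changes of 0.12 and 0.08 were not called, and became 0.21 and 0.17, called higher, without the first Dex + LPS library (edgeR adjusted p = 0.0015 and 0.026). In all, 2 of 7 tested genes were called higher and 2 lower, where 6.51% and 9.28% of all genes tested were, and 15.8% in either direction. The summed neutrophil markers were 48 to 53.1 CPM in Dex + dBRD9 + LPS libraries and 82.7 to 86.9 CPM in Dex + LPS libraries, and their part in the value of Hp was not tested.

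**Figure D2:**
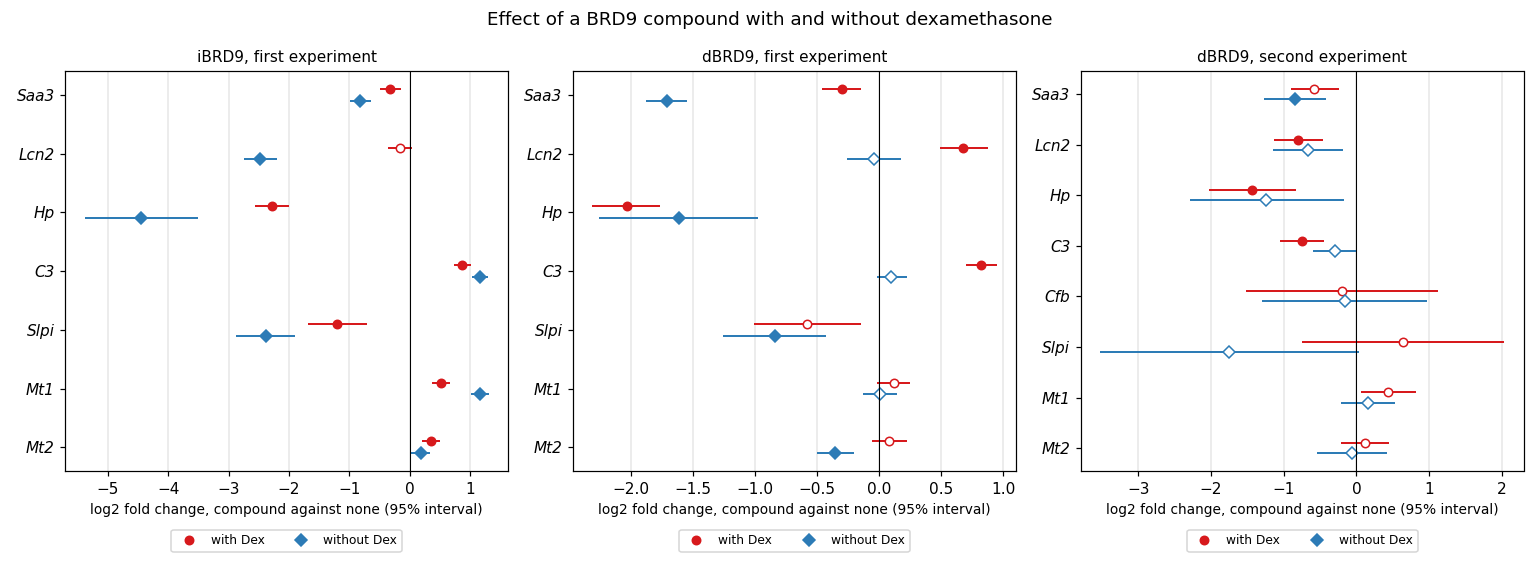
Log2 fold change and 95% interval of each gene for a BRD9 compound against none, with Dex (circles) and without Dex (diamonds), for iBRD9 and dBRD9 in the first experiment (n = 3 libraries a group) and dBRD9 in the second (n = 2). Filled symbols are called at an adjusted p under 0.05, and Hp lies left of 0 in all 3 panels, with C3 right of 0 for dBRD9 in the first experiment and left of it in the second.

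The Dex effect was also read with each compound present. With iBRD9, Dex + iBRD9 + LPS was higher than iBRD9 + LPS in 6 of 7 tested genes, where 25.7% of all genes tested were called higher, 24.1% lower and 49.8% in either direction. Hp was 242-fold higher (log2 fold change 7.92 ± 0.29), rank 5 of 12662 genes, with 7.38 without the first and 8.79 without the second iBRD9 + LPS library, at 1, 7 and 3 Hp counts in the 3 iBRD9 + LPS libraries. Lcn2 was 45.4-fold higher, Saa3 27.4-fold, Mt2 15.5-fold and Mt1 5.08-fold. Slpi was 1.73-fold higher (edgeR adjusted p = 0.021), a call that was lost without the second Dex + iBRD9 + LPS library or without the first or the second iBRD9 + LPS library (adjusted p = 0.052 to 0.087). C3 did not pass the test there (log2 fold change 0.08, interval -0.04 to 0.2). With dBRD9, Dex + dBRD9 + LPS was higher than dBRD9 + LPS in 6 of 7 tested genes, where 29.1% of all genes tested were called higher and 55.8% in either direction. Saa3 was 51.4-fold higher, Hp 40.1-fold, Mt2 18.7-fold, Lcn2 15.2-fold, Mt1 8.54-fold and C3 2.12-fold, and Slpi did not pass the test (log2 fold change -0.13, interval -0.57 to 0.32). These comparisons and those above share groups, so they are not independent of each other.

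Whether a compound's effect differed with Dex was tested as an interaction, the log2 fold change for the compound with Dex minus that without Dex. For iBRD9, Lcn2 had an interaction of 2.31 ± 0.15 (edgeR adjusted p = 6.9e-11). With the inhibitor, Lcn2 averaged 223 CPM with Dex, against 250 CPM in Dex + LPS, and 4.89 CPM without Dex, against 27.3 CPM in LPS. Hp had an interaction of 2.17 ± 0.55 (edgeR adjusted p = 0.0038), Slpi 1.18 ± 0.34 (0.0087) and Saa3 0.5 ± 0.1 (0.00071), so that the lowering by iBRD9 was smaller with Dex in each. The value for Hp was 1.63 without the first and 3.04 without the second iBRD9 + LPS library. Mt1 had an interaction of -0.64 ± 0.086 (edgeR adjusted p = 3.9e-06) and C3 of -0.29 ± 0.079 (0.0069), so that the rise with iBRD9 was smaller with Dex. Mt2 was not called at 0.16 ± 0.094, and was called at 0.24 without the first Dex + LPS library. Of the 7 tested genes, 4 were called positive and 2 negative, where 17.3% and 16% of all genes tested were, and 33.2% in either direction.

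For dBRD9, 4 interactions were called and all 4 were positive. Saa3 had 1.41 ± 0.11 (edgeR adjusted p = 8.6e-08), since the degrader's log2 fold change was -0.3 with Dex and -1.71 without it. Lcn2 had 0.73 ± 0.13 (edgeR adjusted p = 0.0026) and C3 0.72 ± 0.079 (1.2e-05), in both of which the value without Dex was close to 0. Mt2 had 0.43 ± 0.094 (edgeR adjusted p = 0.011), which was lost when only the 4 groups involved were fitted (adjusted p = 0.076). Hp was not called, at -0.42 ± 0.36, nor were Slpi and Mt1. Mt1 was 0.11 and became 0.21, called, without both libraries that stand apart (edgeR adjusted p = 0.034). Only 1.82% of all genes tested had a called positive interaction, 1.57% a negative one and 3.39% one in either direction.

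**Figure D3:**
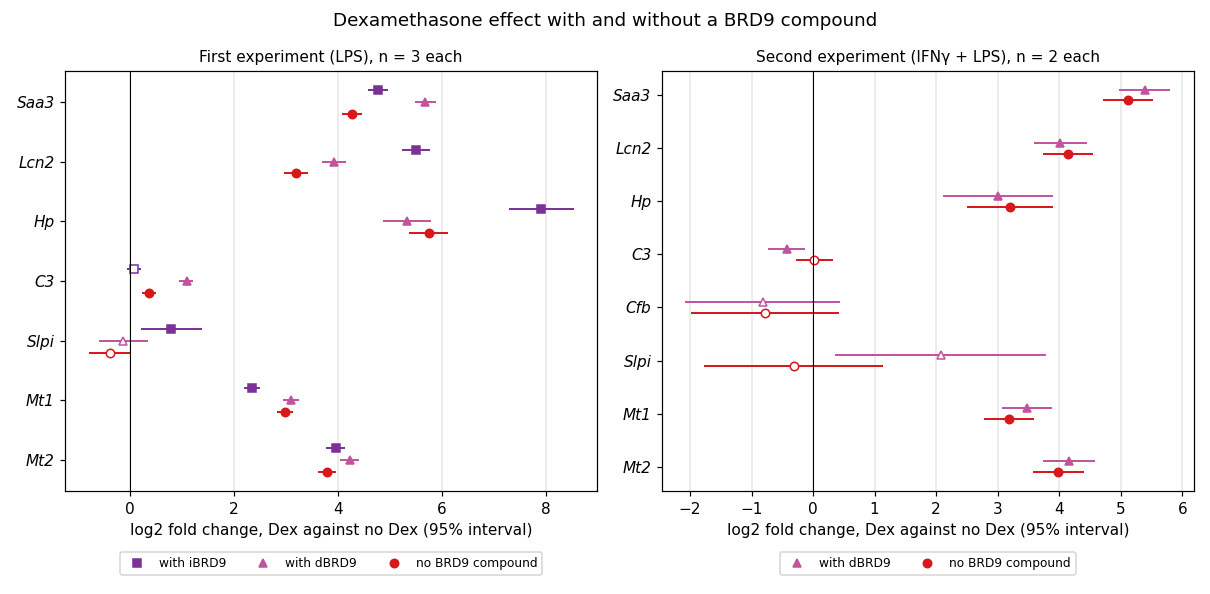
Log2 fold change and 95% interval of each gene for Dex against no Dex, with iBRD9 (squares), with dBRD9 (triangles) or with no BRD9 compound (circles), in the first experiment (n = 3 libraries a group) and the second (n = 2). Filled symbols are called at an adjusted p under 0.05, and Saa3, Lcn2, Hp, Mt1 and Mt2 lie right of 2 in every case, with C3 and Slpi nearer to 0 in the first experiment.

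Taking the groups of the first experiment in order of level, Saa3 ran from Dex + LPS at 4100 ± 188 CPM through Dex + dBRD9 + LPS at 3330 ± 380 and Dex + iBRD9 + LPS at 3290 ± 108 to LPS at 211 ± 6.98, iBRD9 + LPS at 120 ± 3.27, dBRD9 + LPS at 64.7 ± 5.67 and vehicle at 0.891 ± 0.265 CPM (mean ± SD, n = 3 each). In that order, the 2 groups with Dex and a compound overlapped and the other neighbours did not. For Lcn2 the order was Dex + dBRD9 + LPS at 402 ± 21.2, Dex + LPS at 250 ± 37.8, Dex + iBRD9 + LPS at 223 ± 3.01, LPS at 27.3 ± 2.27, dBRD9 + LPS at 26.5 ± 3.28, iBRD9 + LPS at 4.89 ± 0.606 and vehicle at 0.973 ± 0.175 CPM, with LPS and dBRD9 + LPS overlapping. Hp ran from Dex + LPS at 174 ± 37 through Dex + dBRD9 + LPS at 42.5 ± 3.46, Dex + iBRD9 + LPS at 35.9 ± 3.06, LPS at 3.26 ± 1.01, vehicle at 1.48 ± 0.231 and dBRD9 + LPS at 1.06 ± 0.133 to iBRD9 + LPS at 0.151 ± 0.129 CPM. Of the Hp neighbours, the 2 groups with Dex and a compound overlapped by a small margin. C3 fell into 3 tiers of level, with Dex + iBRD9 + LPS, Dex + dBRD9 + LPS and iBRD9 + LPS at 1480 to 1570 CPM, Dex + LPS, dBRD9 + LPS and LPS at 664 to 858 CPM, and vehicle at 73.6 CPM on average. Slpi was highest in LPS at 4.39 ± 0.378 CPM and lowest in vehicle at 0.523 ± 0.138 CPM, and in between came Dex + LPS at 3.32, dBRD9 + LPS at 2.45, Dex + dBRD9 + LPS at 2.23, Dex + iBRD9 + LPS at 1.45 and iBRD9 + LPS at 0.842 CPM. Each of the first 3 groups in that order overlapped the next, and the others did not. Mt1 and Mt2 were both highest in Dex + iBRD9 + LPS, at 2240 ± 58.4 and 3070 ± 85.7 CPM, followed by Dex + dBRD9 + LPS and Dex + LPS, which overlapped each other in both genes, and then by iBRD9 + LPS.

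The balance of the metallothioneins separated libraries with Dex from those without it. In each library, Mt2 counts were divided by Mt1 counts, so that library size cancels. There were 137, 135 and 138 Mt2 counts per 100 Mt1 counts in Dex + iBRD9 + LPS libraries, 144, 151 and 157 in Dex + dBRD9 + LPS libraries, and 153, 155 and 154 in Dex + LPS libraries. Without Dex there were 41, 46.3 and 47.1 in iBRD9 + LPS libraries, 67.4, 67.1 and 71.3 in dBRD9 + LPS libraries, and 89.2, 85.2 and 90.1 in LPS libraries. Vehicle libraries had 16.4, 17.6 and 16.1. The 4 groups without Dex did not overlap one another, and each was below every library with Dex. Among those with Dex, Dex + dBRD9 + LPS overlapped Dex + LPS, and Dex + iBRD9 + LPS lay below both. A ratio of this kind shows that the genes changed unequally and not which of them changed.

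**Figure D4:**
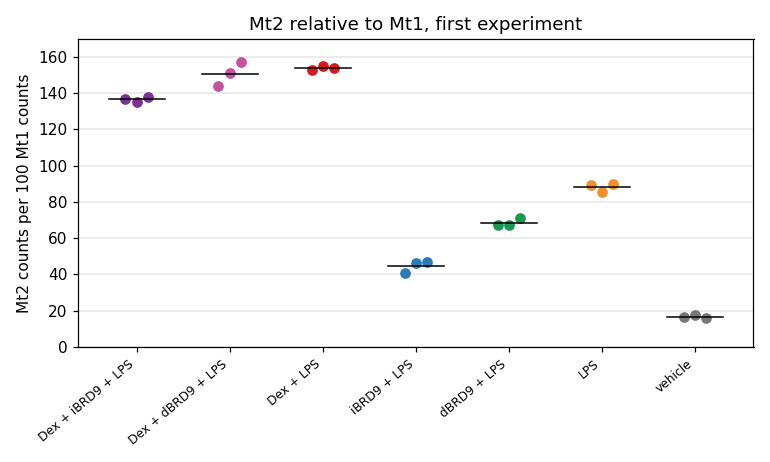
Mt2 counts per 100 Mt1 counts in each of the 21 libraries of the first experiment, by group with n = 3, where points are libraries and bars are group means. Libraries with Dex lie between 135 and 157, LPS libraries between 85.2 and 90.1, and vehicle libraries between 16.1 and 17.6.

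The MRE matches printed above in the promoter windows were not the only ones near these genes. Between the GENCODE start of Mt1 and its start codon lie 229 bases, which held 4 MRE matches, all of them upstream of a TATAAA sequence 101 bases before the start codon. For Mt2 the same stretch of 184 bases held 3 MRE matches upstream of a TATAAA sequence 95 bases before the start codon. The printed windows end at chr8:94179088 for Mt1 and chr8:94172617 for Mt2. Bases between the Mt2 window and the GENCODE start of Mt2, at chr8:94172664, were not searched. The TATAAA sequences start further on, at 94179210 and 94172753, and none of the matches named here lies in a printed window.

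Relatives of the 8 genes were also counted, at low numbers, and are named here after their values were seen. Saa1, a serum amyloid gene mainly expressed in liver, had 26, 14 and 14 counts in Dex + LPS libraries and 0 in LPS libraries, at least 19.1-fold higher with a floor of 3 counts over the group. In Dex + iBRD9 + LPS libraries Saa1 had 3, 11 and 6 counts and in Dex + dBRD9 + LPS libraries 7, 3 and 9, against 0 in every library without Dex. Mt3, a metallothionein best known from brain, had 73, 63 and 47 counts in Dex + iBRD9 + LPS libraries, 92, 115 and 85 in Dex + dBRD9 + LPS libraries, and 192, 76 and 87 in Dex + LPS libraries, against 7, 12 and 2 in LPS libraries and 13, 10 and 8 in vehicle libraries. Reads of a highly expressed relative assigned to these genes could not be told apart from their own transcripts.

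Other genes of these systems were read from lists, given here as counts and medians. Each value beside a gene in what follows is a log2 fold change. The other acute phase genes moved in both directions with Dex. Of 12 tested, 4 were higher and 6 lower in Dex + LPS than in LPS, with a median log2 fold change of -0.36, beside 27.9% higher and 27.5% lower of all genes tested. Cp, the ferroxidase ceruloplasmin, rose by 1.03 on the log2 scale, while Ptx3, a soluble pattern recognition protein, fell by 2.3 and Il1rn, the interleukin-1 receptor antagonist, fell by 1.33. Of 17 complement genes tested, 7 were higher and 5 lower, with Cd55, which dissociates complement convertases, at 4.25, the C1q subunits C1qa at 2.2 and C1qb at 1.93, and the integrin Itgax at -2.07. Of 20 iron and haem genes, 7 were higher and 9 lower, with Cd163, the receptor for haptoglobin bound to haemoglobin, at 4.32 and Hmox1, the haem oxygenase, at 1.71. Among 20 zinc transporter and MTF1 genes, 5 were higher and 7 lower, with the zinc exporter family member Slc30a4 at -1.43. The antiproteases had 3 higher and 6 lower of 13, with Timp1 at -3.21 and Serpinb2 at -1.67. Of 27 receptors and transcription factors of the acute phase response, 13 were higher and 9 lower, with the glucocorticoid-induced Tsc22d3 at 6.33, the interleukin-6 receptor subunit Il6ra at 2.63 and the cytokine Osm at -3.06.

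With iBRD9 under LPS, 0 of the 12 other acute phase genes were higher and 8 were lower than with LPS alone, with a median log2 fold change of -1.65, beside 31.4% higher and 30.5% lower of all genes tested. Ptx3 fell by 4.85, Il1rn by 3.51 and Cp by 2.92 on the log2 scale. Antiproteases had 1 higher and 11 lower of 13, with a median of -2.21, led by Serpinb2 at -3.77. Complement genes had 4 higher and 8 lower of 17, with Itgax at -2.17 and Itgam at -2.13. Zinc genes had 4 higher and 10 lower of 20, with the zinc importers Slc39a8 at -1.94 and Slc39a14 at -1.77. Receptors and transcription factors had 9 higher and 10 lower of 27, with a median of 0.01. Among them the formyl peptide receptors Fpr1 and Fpr2 fell by 4.62 and 4, and Il6, a main inducer of the acute phase response, fell by 1.53. With dBRD9 under LPS, 0 of 12 other acute phase genes were higher and 4 lower, with Cp at -1.47 and Il1rn at -1.13, beside 6.64% and 9.97% of all genes tested. Receptors and transcription factors had 5 higher and 4 lower of 27 with dBRD9, among which Fpr1 fell by 2.75, Fpr2 by 2.03 and the transcription factor Cebpd by 0.78.

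Genes whose levels followed each of the 7 tested genes most closely over the 7 group means of the first experiment were found among 3576 candidates, by Pearson correlation of log2 CPM, given as a description. The second value beside a gene is r over the 5 group means of the second experiment. Saa3 was closest to Srpr (r = 0.996, and 0.743), Hspa5 (0.995, and 0.681) and Tspan3 (0.995, and 0.887). Lcn2 was closest to Ncf1 (0.994, and 0.88), Acp2 (0.992, and 0.572) and Tagap (0.988, and 0.669). Hp was closest to Tbc1d2b (0.993, and 0.815) and C3 to Wdr59 (0.994, and 0.988). Mt1 was closest to Cep85 (0.997, and 0.972), C1qb (0.994, and 0.976) and Ifngr1 (0.992, and 0.424). Mt2 was closest to Slc41a2 (0.995, and 0.986 in the second), while Slpi was closest to Calcrl (0.984), which gave -0.0625 in the second experiment. All such values share their libraries and rest on few group means.

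The second experiment used IFNγ together with LPS and 2 libraries a group, and it was fitted on its own. The stimulus raised Saa3, Lcn2, C3, Cfb, Mt1 and Mt2. C3 had 1700 and 1870 CPM in IFNγ + LPS libraries, against 42.2 and 50.7 CPM in vehicle libraries, far apart (log2 fold change 5.26 ± 0.16, edgeR adjusted p = 8.7e-14). Cfb had 12 and 16 counts in IFNγ + LPS libraries and 0 in both vehicle libraries, at least 13.5-fold higher with a floor of 3 counts over the group, with the uncertainty of its overlap with Gm20547. Saa3 had 12.9 and 15.4 CPM in IFNγ + LPS libraries, against 1.11 and 0.385 CPM in vehicle libraries (log2 fold change 4.28 ± 0.27, and 3.66 or 5.17 without the second or the first vehicle library). Lcn2 rose by 1.58, Mt1 by 1.81 and Mt2 by 3.29 on the log2 scale. Hp and Slpi were not called, with values of 0.62 (edgeR adjusted p = 0.2) and 0.85 (0.27). In all, 6 of 8 genes were higher, where 32.8% of all 13313 genes tested were, 35.6% were lower and 68.5% were called in either direction. Against vehicle, Dex + IFNγ + LPS was higher in 7 of 8, all but Slpi, where 32.6% of all genes tested were called higher, 31.3% lower and 63.9% in either direction.

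**Figure D5:**
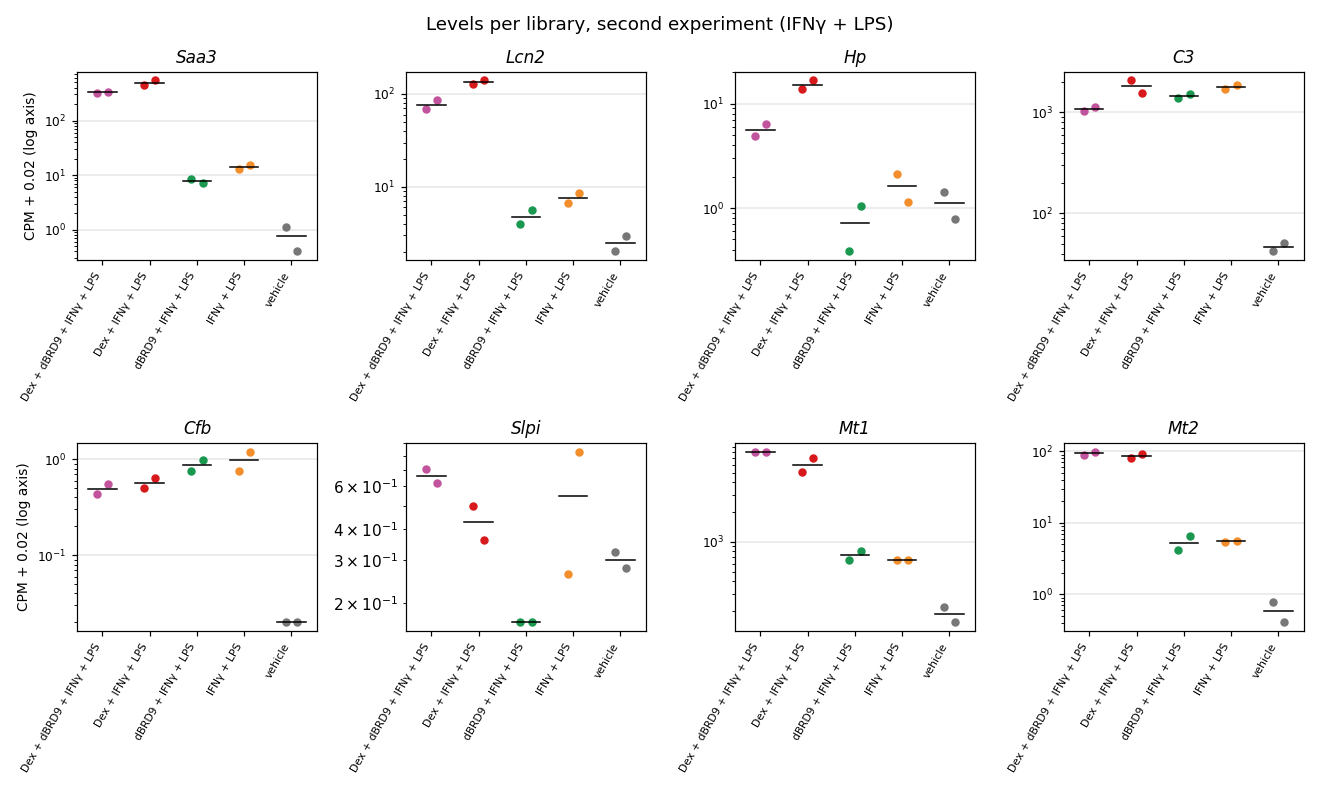
Level of each gene in the 10 libraries of the second experiment, as CPM + 0.02 on a log axis, by group with n = 2, where points are libraries and bars are group means. Saa3, Lcn2, Hp, Mt1 and Mt2 were higher in all 4 libraries with Dex than in all 6 without it, and C3 was low in vehicle libraries alone.

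Adding Dex to IFNγ + LPS again raised Saa3, Lcn2, Hp, Mt1 and Mt2. Saa3 had 441 and 543 CPM in Dex + IFNγ + LPS libraries, against 12.9 and 15.4 CPM in IFNγ + LPS libraries, a 34.8-fold difference (log2 fold change 5.12 ± 0.18, edgeR adjusted p = 2.6e-11). Lcn2 had 129 and 140 CPM in Dex + IFNγ + LPS libraries, against 6.68 and 8.49 CPM in IFNγ + LPS libraries, a 17.8-fold difference. Hp had 13.7 and 16.7 CPM in Dex + IFNγ + LPS libraries, against 2.12 and 1.11 CPM in IFNγ + LPS libraries, a 9.19-fold difference. None of these groups overlapped. Mt1 had 5020 and 6930 CPM in Dex + IFNγ + LPS libraries, against 660 and 649 CPM in IFNγ + LPS libraries (log2 fold change 3.19 ± 0.18, edgeR adjusted p = 5.2e-09). Mt2 had 80.8 and 93.1 CPM in Dex + IFNγ + LPS libraries, against 5.4 and 5.61 CPM in IFNγ + LPS libraries (log2 fold change 3.98 ± 0.19). Its antisense partner Gm45774 had 52 and 72 counts in Dex + IFNγ + LPS libraries and 4 and 3 in IFNγ + LPS libraries, and with strand handling not given their reads cannot be told apart. C3 had 2070 and 1560 CPM in Dex + IFNγ + LPS libraries, on both sides of the 1700 and 1870 CPM in IFNγ + LPS libraries, and its log2 fold change of 0.02 had an interval of -0.26 to 0.31. Cfb (-0.78) and Slpi (-0.31) were not called either. The 5 of 8 called higher stand beside 10.7% of all genes tested called higher, 9.21% lower and 19.9% in either direction.

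Of the 8 genes, only Saa3 was called for dBRD9 without Dex in the second experiment. It had 8.48 and 7.25 CPM in dBRD9 + IFNγ + LPS libraries, against 12.9 and 15.4 CPM in IFNγ + LPS libraries (log2 fold change -0.84 ± 0.2, edgeR adjusted p = 0.038). The groups did not overlap, but leaving out any one of the 4 libraries ended the call, with values of -0.97 and -0.73 without the first and the second dBRD9 + IFNγ + LPS library and of -0.97 and -0.72 without the first and the second IFNγ + LPS library (adjusted p = 0.12 to 0.38). Lcn2 had 3.95 and 5.57 CPM in dBRD9 + IFNγ + LPS libraries, against 6.68 and 8.49 CPM in IFNγ + LPS libraries, and was not called (log2 fold change -0.66, interval -1.13 to -0.2, edgeR adjusted p = 0.19). Hp (-1.24), C3 (-0.3), Mt1 (0.16) and Mt2 (-0.06) were not called. That 1 of 8 stands beside 1.01% of all genes tested called lower and 1.83% in either direction.

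With Dex present, dBRD9 lowered Lcn2, Hp and C3 in the second experiment. Lcn2 had 68.7 and 85.1 CPM in Dex + dBRD9 + IFNγ + LPS libraries, against 129 and 140 CPM in Dex + IFNγ + LPS libraries (log2 fold change -0.8 ± 0.15, edgeR adjusted p = 0.012). C3 had 1020 and 1140 CPM in Dex + dBRD9 + IFNγ + LPS libraries, against 2070 and 1560 CPM in Dex + IFNγ + LPS libraries (log2 fold change -0.75 ± 0.14, edgeR adjusted p = 0.011). Hp had 4.87 and 6.4 CPM in Dex + dBRD9 + IFNγ + LPS libraries, against 13.7 and 16.7 CPM in Dex + IFNγ + LPS libraries (log2 fold change -1.43 ± 0.28, edgeR adjusted p = 0.014). In each the groups were apart, but without either of the Dex + dBRD9 + IFNγ + LPS libraries none of the 3 was called, C3 was not called without the first Dex + IFNγ + LPS library (-0.54) and Hp not without the second (-1.28). Saa3 had 322 and 337 CPM in Dex + dBRD9 + IFNγ + LPS libraries, below the 441 and 543 CPM in Dex + IFNγ + LPS libraries, and was not called (log2 fold change -0.58, edgeR adjusted p = 0.074). It was called with DESeq2 (adjusted p = 0.0021). Mt1 had 8120 and 8120 CPM in Dex + dBRD9 + IFNγ + LPS libraries, above the 5020 and 6930 CPM in Dex + IFNγ + LPS libraries, and was not called (log2 fold change 0.44, edgeR adjusted p = 0.24). The 3 of 8 called lower stand beside 1.16% of all genes tested called lower and 1.4% in either direction.

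Set against dBRD9 + IFNγ + LPS, Dex + dBRD9 + IFNγ + LPS was higher in Saa3 (41.8-fold), Mt2 (17.9-fold), Lcn2 (16.1-fold), Mt1 (11.1-fold) and Hp (8.03-fold), and lower in C3. The log2 fold change of Hp, 3, was 2.46 without the first and 3.92 without the second dBRD9 + IFNγ + LPS library. These are 5 of 8 higher and 1 lower, where 14% and 14.4% of all genes tested were, and 28.4% in either direction. C3 averaged 1080 ± 86 CPM in Dex + dBRD9 + IFNγ + LPS libraries and 1450 ± 81.2 CPM in dBRD9 + IFNγ + LPS libraries (SD, n = 2 each), with a log2 fold change of -0.43 ± 0.14 (edgeR adjusted p = 0.029) that was not called without any one of these 4 libraries (values -0.51 to -0.34). No interaction of Dex and dBRD9 was called among the 8 genes in the second experiment, where 0.00751% of all genes tested had one, a single gene. The 95% intervals, which are not adjusted for the number of genes tested, left out 0 for C3 (-0.45, interval -0.86 to -0.04) and Slpi. The share of all genes with such an interval is not given here, and DESeq2 called 0 of the 8. Among the 8, Slpi had the largest value, 2.39 ± 1.1 (edgeR adjusted p = 0.52), at under 1 CPM in every library of that experiment.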

How the data were processed

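The authors deposited 2 tables of raw read counts per gene, 1 per experiment, with 21 and 10 libraries, and no reads were reprocessed here. The mm10 build and the tools fastp, STAR and DESeq2 are named per the submitters' processing notes, with no version. How reads were counted, with which annotation and strand setting, is not given in the sources used here. Identifiers were paired with symbols and exon lengths through GENCODE M21.

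Each table was analysed alone in R 4.3.3 with edgeR 4.0.16: genes were kept with filterByExpr (minimum count 10, minimum total 15), scaled by TMM, fitted with 1 coefficient per group, and tested with the quasi-likelihood test and Benjamini-Hochberg adjustment over the 12662 and 13313 genes kept. Residual degrees of freedom were 14 and 5. SE is the log2 fold change divided by the square root of F, and intervals are 95%. CPM uses TMM-scaled totals, and RPKM is CPM per kilobase of merged exons. Where a group was at 0, a lower bound was computed against 3 counts over the group, which covers counting error only. The pipeline was tested on simulated counts.

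The 8 genes are named in every comparison. From the lists, at most 4 called genes per list and comparison are named, by absolute log2 fold change among those that reach 10 CPM in 1 of the groups compared, or the 2 of highest CPM where none was called. The genes and lists were chosen with earlier results of these data known. Alternatives were RLE factors, library totals alone, no filter, DESeq2 1.42.0, the compared groups alone, a replicate block, leaving out each library, and leaving out both libraries that stand apart. No set test was made. Promoter windows came from RefSeq (GRCm38.p6).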

Additional observations from a re-analysis of the deposited data

Results flagged for a closer look

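In the first experiment the effect of a BRD9 compound differed between cells with and without Dex in 10 gene results, each by the test of the interaction itself (the compound's log2 fold change in Dex-treated cells less that in cells without Dex). For iBRD9 these were Lcn2 at 2.31, Hp at 2.17, Slpi at 1.18, Saa3 at 0.5, C3 at -0.29 and Mt1 at -0.64. For dBRD9 they were Saa3 at 1.41, Lcn2 at 0.73, C3 at 0.72 and Mt2 at 0.43. Of all genes tested, 33.2% had a called interaction for iBRD9 and 3.39% for dBRD9. The Mt2 call was lost when only the 4 groups involved were fitted (edgeR adjusted p = 0.076). The Hp value rests on 1, 7 and 3 counts in the iBRD9 + LPS libraries.

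Another 4 results moved in opposite directions in the experiments, with every library of the treated group on one side of its comparison group in the second experiment and on the other side in the first. With Dex, dBRD9 gave Lcn2 a log2 fold change of -0.8 under IFNγ + LPS and 0.68 under LPS, and gave C3 -0.75 and 0.82. Without Dex, dBRD9 gave C3 -0.3 under IFNγ + LPS and 0.1 under LPS, neither of them called. Dex on top of dBRD9 gave C3 -0.43 under IFNγ + LPS and 1.09 under LPS. The calls under IFNγ + LPS were easily lost when 1 library was left out. Lcn2 at -0.8 kept its call in 2 of 4 such fits, C3 at -0.75 in 1 of 4 and C3 at -0.43 in 0 of 4. The experiments were fitted separately and differ in stimulus, table and library number, so these differences were not tested. No group held 4 or more libraries, so no outlier rule for single libraries was used in this flagging. Libraries of the first experiment that stood apart within their groups are named above, with results without them.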

How the results depend on the processing

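Across alternatives other than leaving out 1 library, 889 of 916 results for a single gene kept their direction and their side of the threshold, 652 of 657 among called ones. With each library left out, 570 of 592 called results kept both, 22 lost the call and none reversed. In the second experiment, the number of genes called for dBRD9 with Dex was 5 with no filter on low counts (1 higher and 4 lower), against 3, and 0 to 2 with a library left out. For dBRD9 without Dex it was 1, and 0 without any one of the 4 libraries. In the first experiment it was 7 for LPS against vehicle, and 8 without any one of the 6 libraries, where Cfb passed the filter too. Calls with 2 libraries a group are limited by that number, and low counts limit Slpi, Cfb and, without Dex, Hp. The cause of these moves was not tested.

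Replicate numbers did not pair the libraries throughout. Deviations of same-numbered libraries correlated at -0.166 to 0.688 in the first experiment, with 12 of 63 pairs over 0.1, beside 14 of 126 differently numbered pairs. In the second they correlated at -0.668 to 0.24, with 2 of 20 pairs over 0.1. With 2 libraries a group, deviations mirror each other, so each value occurs in 2 pairs. The differently numbered pairs there repeat these values with the sign changed and give no separate comparison. Same-numbered libraries of Dex + LPS and Dex + dBRD9 + LPS correlated at 0.688, 0.36 and 0.464. Their libraries 2 and 3 also correlated across numbers, at 0.344 and 0.435. With the replicate block, the count for dBRD9 without Dex in the second experiment was 0 in place of 1 (Saa3, adjusted p = 0.068), and no other call of the 8 genes changed.

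Results that changed sign were all uncalled. With library totals alone, Lcn2 for dBRD9 under LPS was 0.01, and in the second experiment Hp for the stimulus and Slpi for Dex with the stimulus against vehicle were each -0.02. Totals alone also moved the median log2 fold change of all genes, to -0.56 for LPS, -0.46 for Dex + LPS, -0.76 for IFNγ + LPS and -0.63 for Dex + IFNγ + LPS against vehicle, to 0.14 for iBRD9 under LPS, and to 0.12 and 0.15 for Dex with dBRD9 in the first and the second experiment. Over the whole table, DESeq2 called 31 interactions in the second experiment and edgeR 1. C3 for Dex under IFNγ + LPS was -0.02 with RLE factors, 0 with no filter and -0.02 with DESeq2. With a library left out, dBRD9 under LPS gave -0.1 to 0.06 for Lcn2 and -0.03 to 0.05 for Mt1, and Dex with dBRD9 gave -0.29 to 0.01 for Slpi. In the second experiment, dBRD9 gave -0.49 to 0.21 for Cfb, -0.01 to 0.31 for Mt1 and -0.42 to 0.22 for Mt2. The interaction ran over -0.36 to 0.13 for Lcn2, -0.77 to 0.72 for Hp, -0.4 to 0.28 for Cfb and -0.11 to 0.54 for Mt2. Dex gave -0.21 to 0.21 for C3 and -0.98 to 0.73 for Slpi, and the stimulus gave -0.19 to 1.53 for Slpi.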
